A study of Mus musculus with 4 samples.

Results

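A set of 10 genes of the skeletal muscle fibre, chosen by symbol, was followed in mouse brown adipose tissue RNA recovered with an antibody against FAM172A (IP) or with control immunoglobulin (IgG). They were Ttn, Neb, Myh1, Myh2, Myh4, Acta1, Ckm, Atp2a1, Ryr1 and Tnnc1, 10 of the 22481 gene symbols in the deposited tables, each with 1 row per table. RNA immunoprecipitation sequencing recovers RNA that comes down with a protein, and the IgG library gives the background of that recovery. There were 4 libraries in 2 pairs, each pair with 1 IP and 1 IgG library. The first pair is the one whose titles and protocol label give cold. Its table columns name only IP and IgG, so it is assigned by elimination. The WT4 pair carries its titles in its columns and has no protocol label. All titles carry WT, and the labels used here give no temperature, duration, strain, sex or age, and no sign of whether the pairs came from separate animals. Depth was 6633654 fragments for IP against 5587294 for IgG in the first pair, and 1631883 for IP against 360369 for IgG in WT4.

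The sarcomere is the contractile unit of striated muscle. Myosin thick filaments pull on actin thin filaments, titin spans from the Z-disc to the M-band, and calcium released through the ryanodine receptor starts the pull by binding troponin C. Brown adipocytes burn fat to make heat, and in the mouse the interscapular brown fat pad lies against skeletal muscle. Brown adipocytes and skeletal muscle also share a developmental ancestry among cells that expressed Myf5. In bulk tissue, more muscle fibres in a sample and more muscle RNA per fibre cannot be told apart.

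All 10 genes had fragments in all 4 libraries and all passed the filter on low values. In the first pair they together took 3.53% of IP fragments (95% exact binomial interval 3.52% to 3.54%) and 2.99% of IgG fragments (2.98% to 3.01%). In the WT4 pair they took 0.658% in IP (0.645% to 0.670%) and 0.626% in IgG (0.601% to 0.652%). Such intervals cover counting error only. The IP over IgG ratio of these shares was 1.18 in the first pair and 1.05 in WT4, and the share differed more between the pairs than within them. Their share was 5.37-fold higher in the first pair than in WT4 among IP libraries and 4.78-fold higher among IgG libraries. The tables were normalized separately and each pair holds 1 library per fraction, so these folds between pairs rest on shares of each library's own fragments and have no test.

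**Figure D1:**
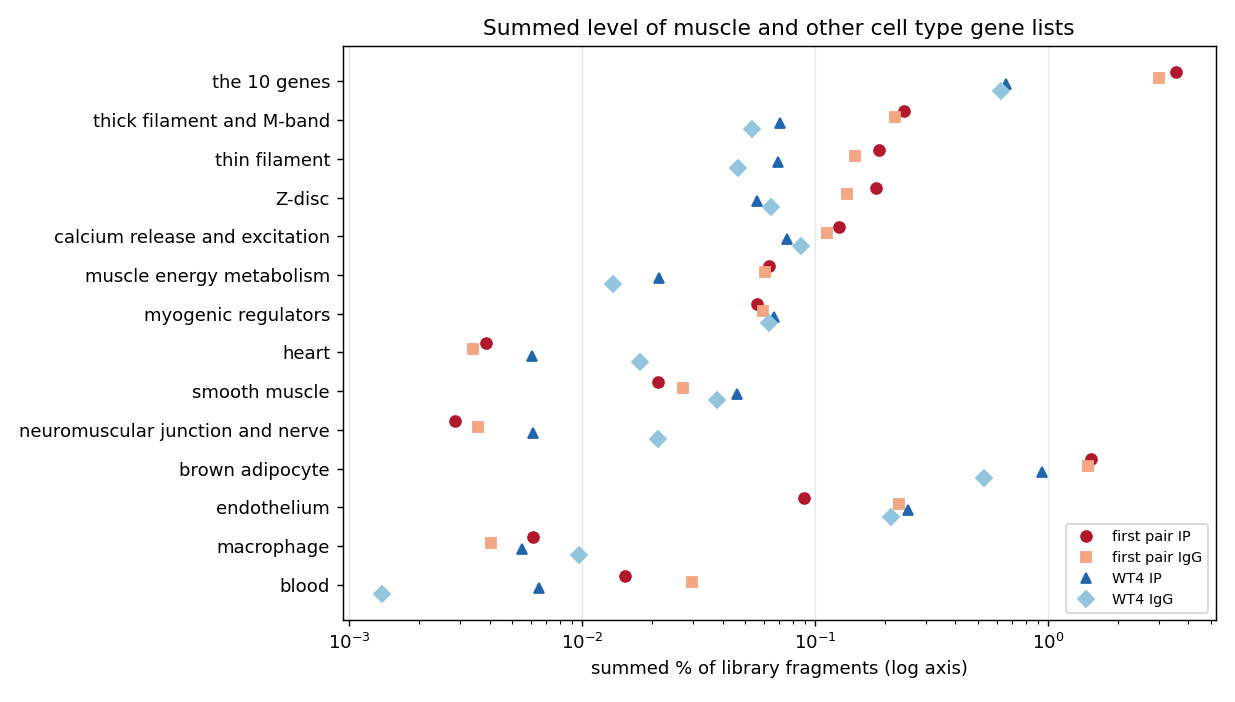
Summed share of library fragments (%, log axis) of the 10 genes and of 13 other gene lists in the 4 libraries, 1 point per library. The 10 genes lie at 3.53% (IP) and 2.99% (IgG) for the first pair and at 0.658% (IP) and 0.626% (IgG) for WT4, and the lists of other filament, Z-disc and muscle energy genes also lie further right in the first pair.

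Titin, the giant elastic protein that runs from the Z-disc to the M-band, supplied most of these fragments. Ttn (ENSMUSG00000051747, chromosome 2, 76703980 to 76982547, minus strand) had 178844 IP against 132125 IgG fragments (first pair), and 7481 IP against 1284 IgG fragments (WT4). By fragments it ranked 2 in IP and 1 in IgG among all genes tested in the first pair, and 10 in IP and 14 in IgG in WT4. Of the fragments of the 10 genes it made up 76.4% (IP) and 79.0% (IgG) in the first pair, and 69.7% (IP) and 56.9% (IgG) in WT4. Its rank is a rank of fragments and not of molecules, because its longest annotated transcript has 106.8 kb. Without Ttn the other 9 genes took 0.834% in IP and 0.628% in IgG in the first pair, and 0.199% in IP and 0.270% in IgG in WT4. The IP over IgG ratio of these shares was thus 1.33 in the first pair and 0.738 in WT4, on opposite sides of 1.

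**Figure D2:**
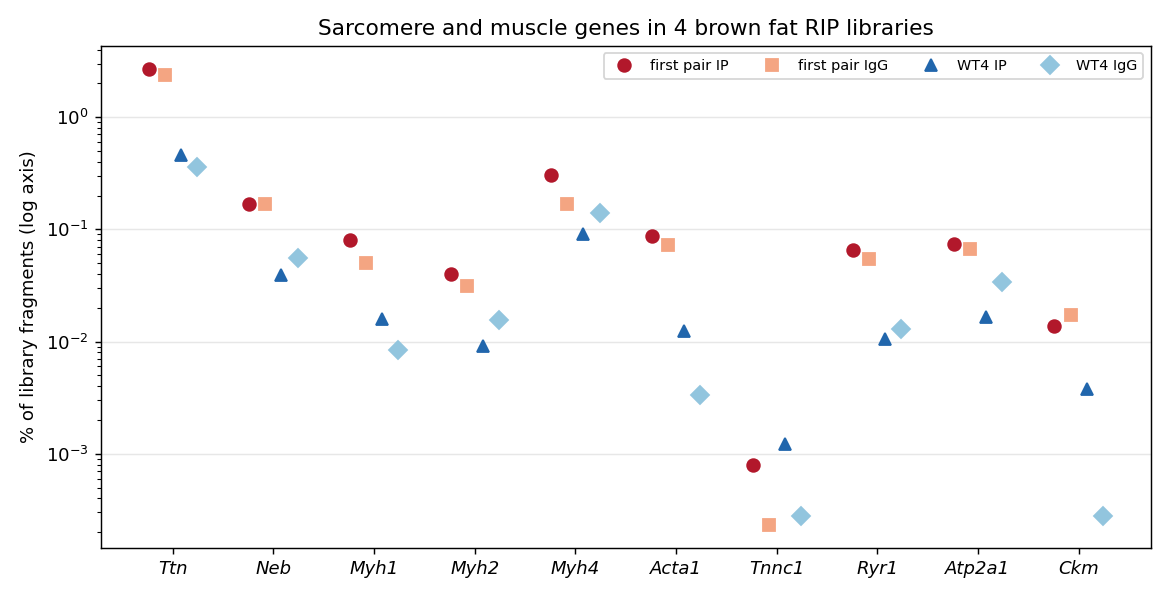
Share of each library's fragments (%, log axis) taken by each of the 10 genes, 1 point per library. Both libraries of the first pair lie above both WT4 libraries for every gene except Tnnc1, which had 0.000799% (IP) and 0.000233% (IgG) for the first pair and 0.00123% (IP) and 0.000277% (IgG) for WT4.

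The comparison the study was designed for is IP against IgG. It was read within each pair as the log2 ratio of scaled CPM (CPM, the authors' scaled count relative to the pair's mean total) after adding 1, with a line at 2-fold, and across both pairs with edgeR's quasi-likelihood test with the pair as a block and Benjamini-Hochberg adjustment over all 16217 genes tested. None of the 10 genes passed that test (adjusted p = 1.0 for each, and 0 of 10 at an unadjusted p under 0.05; the smallest unadjusted p was 0.056, for Acta1). The test called 0.00617% of all genes, which was 1 gene, mt-Atp6, a mitochondrially encoded subunit of ATP synthase, higher in IP (edgeR log2 fold change 5.395, adjusted p = 6.18e-10) and named after its value was seen. Its listed locus holds 6 genes, so its count is uncertain, and it had 1 fragment in WT4 IgG. DESeq2 and limma also called 0 of the 10, with 0 and 1 at an unadjusted p under 0.05. At least 2-fold higher in IP was 1 of 10 in the first pair, against 13.3% of all genes, and 0 were 2-fold lower, against 26.9%. In the WT4 pair 4 were 2-fold higher, against 51.6% of all genes, and 0 were 2-fold lower, against 19.3%. Tnnc1 was the 1 gene 2-fold higher in both pairs, against 7.19% of all genes, and 0 were 2-fold lower in both, against 5.25%.

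For the 10 genes the log2 ratio had a median of 0.28 (first pair) and 0.31 (WT4). Over all genes tested it was -0.03 and 1.17, and among the 1906 genes with a mean of at least 100 scaled CPM it was -0.05 and 0.46. The WT4 median over all genes depends on how genes with no fragment in the shallow IgG library are set. With a library at 0 set to a floor of 3 fragments, the medians were -0.29 (13717 genes) and 0.11 (15477 genes). Genes with a library at 0 and neither library above the floor were left out. In WT4, where IgG was shallower, the floor reads a gene with few IP and 0 IgG fragments as lower in IP. Part of the fall from 1.17 thus follows from the floor itself. Of the 10 genes, 9 had a log2 ratio above 0 in the first pair and 5 in WT4. The WT4 number was 7 with TMM factors, which turned Neb and Ryr1 positive, and 4 when centred on the median of all genes, which turned Ttn negative. In FPKM the first pair's number was 7, with Neb and Atp2a1 turned negative.

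**Figure D3:**
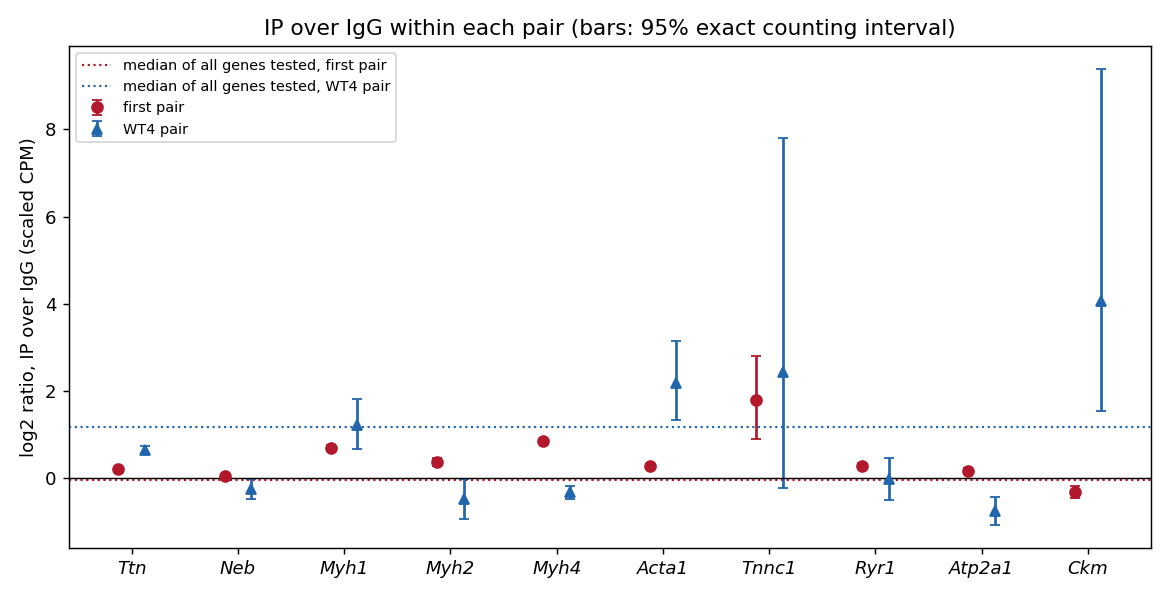
Log2 ratio of IP over IgG in scaled CPM, with no pseudocount, for each gene in the first pair (circles) and the WT4 pair (triangles). Bars are 95% exact intervals that cover counting error only, and dotted lines are the medians over all genes tested (-0.03 and 1.17). Tnnc1, Acta1 and Ckm stand highest in WT4, and the bars of Tnnc1 and Ckm there rest on 1 IgG fragment each.

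Of the giant filament proteins, Ttn had 27101 IP and 23524 IgG scaled CPM in the first pair, and 5040 IP and 3209 IgG in WT4. It was higher in IP in both pairs, 1.15-fold (1.14 to 1.16) and 1.57-fold (1.48 to 1.67), below the 2-fold line in each (edgeR log2 fold change 0.43, unadjusted p = 0.543). Nebulin, the ruler-like protein laid along the thin filament, is encoded by Neb (ENSMUSG00000026950, chromosome 2, 52136647 to 52378474, minus strand). Neb had 11264 fragments in IP against 9314 in IgG (first pair), and 633 in IP against 202 in IgG (WT4). It was close to even in both, at 1.03-fold (1.001 to 1.06) and 0.845-fold (0.720 to 0.995). Across the pairs its log2 fold change was -0.10 (edgeR, unadjusted p = 0.853).

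The motors were the adult fast myosin heavy chains, which lie in tandem on the plus strand of chromosome 11. Myh2 (ENSMUSG00000033196, 67171027 to 67197517) encodes the IIa chain, Myh1 (ENSMUSG00000056328, 67200052 to 67224575) the IIx chain and Myh4 (ENSMUSG00000057003, 67238029 to 67260446) the IIb chain, the fastest. Only 2534 bases part Myh2 from Myh1, and 13453 bases part Myh1 from Myh4. Their coding sequences are close. Taken as the longest open reading frame of each gene's annotated transcripts, Myh1 and Myh2 were 91.1% identical, Myh1 and Myh4 90.2% and Myh2 and Myh4 88.2%. Reads that fall in identical stretches can be assigned to any of them. Of all 75-base windows of the Myh1 coding sequence, 13.1% occurred unchanged in Myh2 and 5.06% in Myh4, and 3.91% of Myh2 windows occurred in Myh4, while 0% of Myh4 windows occurred in the slow chain gene Myh7. The longest run shared by Myh2, Myh1 and Myh4 had 140 bases, at coding positions 1549 to 1688 of each (counted from 1 at the start codon), and shows where counts cannot separate the chains:
shared: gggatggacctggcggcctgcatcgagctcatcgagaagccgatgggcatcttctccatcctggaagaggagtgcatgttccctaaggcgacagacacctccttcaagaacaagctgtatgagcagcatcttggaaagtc
The 60-base window in which they differ most, at coding positions 3841 to 3900 of Myh2 and Myh1 and 3832 to 3891 of Myh4, shows how they can be told apart. Capitals mark the 24 positions where the bases of the chains are not all the same:
Myh2: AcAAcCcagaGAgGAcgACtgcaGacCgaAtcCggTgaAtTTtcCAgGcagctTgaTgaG
Myh1: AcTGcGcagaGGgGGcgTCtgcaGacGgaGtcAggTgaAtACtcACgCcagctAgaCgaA
Myh4: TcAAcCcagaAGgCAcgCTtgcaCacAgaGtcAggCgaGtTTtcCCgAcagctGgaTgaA
These sequences are from the GENCODE vM21 transcripts on GRCm38. The counts of the 3 myosins are uncertain to the extent of such shared stretches.

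Myh4 was the most abundant of the 3 in every library. It had 20137 IP against 9465 IgG fragments (first pair), and 1485 IP against 501 IgG fragments (WT4). Its ratio was 1.81-fold (1.77 to 1.86) in the first pair and 0.799-fold (0.722 to 0.886) in WT4, so the pairs went opposite ways (edgeR log2 fold change 0.27, unadjusted p = 0.630). Myh1 had 5352 fragments in IP against 2826 in IgG (first pair), and 260 in IP against 30 in IgG (WT4). It was the myosin that stood higher in IP in both pairs, 1.61-fold (1.54 to 1.69) and 2.34-fold (1.597 to 3.53), past the 2-fold line in WT4 alone, with a log2 fold change of 0.95 (edgeR, unadjusted p = 0.103). Myh2 had 2650 IP against 1739 IgG fragments (first pair), and 149 IP against 56 IgG fragments (WT4). Its ratios of 1.30-fold (1.22 to 1.38) and 0.717-fold (0.524 to 0.993) again lay on opposite sides of 1 (edgeR log2 fold change -0.04, unadjusted p = 0.944).

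Thin filament genes came next. Acta1 (ENSMUSG00000031972, chromosome 8, 123891769 to 123894751, minus strand) encodes the skeletal alpha actin of the thin filament. It had 5758 fragments in IP against 4052 in IgG (first pair), and 201 in IP against 12 in IgG (WT4). IP stood higher in both pairs, 1.21-fold (1.16 to 1.26) and 4.51-fold (2.53 to 8.88), with a log2 fold change of 1.16 (edgeR, unadjusted p = 0.056). The table gives Acta1 a listed locus shared by 75 genes, so its count is uncertain. Of its relatives, the cardiac actin gene Actc1, whose listed locus holds 2 genes, was listed at 0 in all 4 libraries. Of all 75-base windows of the Acta1 coding sequence, 0% occurred in Actc1 or in the smooth muscle actin gene Acta2. In the beta actin gene Actb 0.283% of these windows occurred.

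Tnnc1 (ENSMUSG00000091898, chromosome 14, 31208312 to 31211729, plus strand) encodes the calcium-binding troponin C of slow and cardiac fibres, and had the fewest fragments of the 10 in each library, level with Ckm in WT4 IgG. It had 53 fragments in IP against 13 in IgG (first pair), and 20 in IP against 1 in IgG (WT4). The ratio was 3.47-fold (1.87 to 6.94) in the first pair and 5.39-fold in WT4, where the counting interval of 0.862 to 223 includes 1. Across the pairs Tnnc1 did not pass (edgeR log2 fold change 2.08, unadjusted p = 0.724). It shares a listed locus with Nisch, so its count is uncertain. Centring the pairs or a pseudocount of 5 took it below the 2-fold line in a pair.

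Calcium handling was represented by the release channel and the pump. Ryr1 (ENSMUSG00000030592, chromosome 7, 29003344 to 29125179, minus strand) encodes the ryanodine receptor through which skeletal muscle releases calcium. It had 4331 IP against 3024 IgG fragments (first pair), and 171 IP against 47 IgG fragments (WT4). Its ratios were 1.22-fold (1.16 to 1.28) and 0.981-fold (0.706 to 1.38), the last with an interval that includes 1 (edgeR log2 fold change 0.13, unadjusted p = 0.820). Atp2a1 (ENSMUSG00000030730, chromosome 7, 126445858 to 126463108, minus strand) encodes SERCA1, the pump that returns calcium to the store of fast fibres. It had 4882 fragments in IP against 3715 in IgG (first pair), and 268 in IP against 122 in IgG (WT4). The pump gene stood at 1.12-fold (1.07 to 1.17) in the first pair and at 0.592-fold (0.476 to 0.740) in WT4, the lowest ratio of the 10 in that pair (edgeR log2 fold change -0.29, unadjusted p = 0.605). Its listed locus is shared with Rabep2.

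Ckm (ENSMUSG00000030399, chromosome 7, 19404776 to 19422841, plus strand) encodes the muscle creatine kinase, which regenerates ATP from phosphocreatine beside the myofibrils. It had 909 fragments in IP against 965 in IgG (first pair), and 62 in IP against 1 in IgG (WT4). It was the 1 gene of the 10 below 1 in the first pair, at 0.802-fold (0.731 to 0.879), and had the highest ratio in WT4, at 16.7-fold with a counting interval of 2.89 to 671. Across the pairs the log2 fold change was 1.27 (edgeR, unadjusted p = 0.218). Ckm shares a listed locus with A930016O22Rik.

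The make-up of the muscle signal was compared among the 9 genes without Ttn, as shares of their summed fragments, which need no scaling between libraries. Myh4 took 36.4% in IP (36.0% to 36.8%) and 27.0% in IgG (26.5% to 27.4%) in the first pair, and 45.7% in IP (44.0% to 47.4%) and 51.5% in IgG (48.4% to 54.7%) in WT4. By fragments, which count long transcripts more often, it led the 9 in each library, and its share was larger in both WT4 libraries than in both of the first pair. Neb took 20.4% in IP and 26.5% in IgG in the first pair, and 19.5% in IP and 20.8% in IgG in WT4. Acta1 held 10.4% in IP and 11.5% in IgG in the first pair, and 6.19% in IP and 1.23% in IgG in WT4 (0.640% to 2.15%). Myh2 stayed in a narrow range, at 4.79% in IP and 4.95% in IgG in the first pair, and 4.59% in IP and 5.76% in IgG in WT4. Ckm held 1.64% in IP and 2.75% in IgG in the first pair, and 1.91% in IP and 0.103% in IgG in WT4 (0.00260% to 0.572%). The WT4 IgG library was thus the one with little Acta1 and Ckm beside its Myh4, on 972 fragments of the 9 genes.

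**Figure D4:**
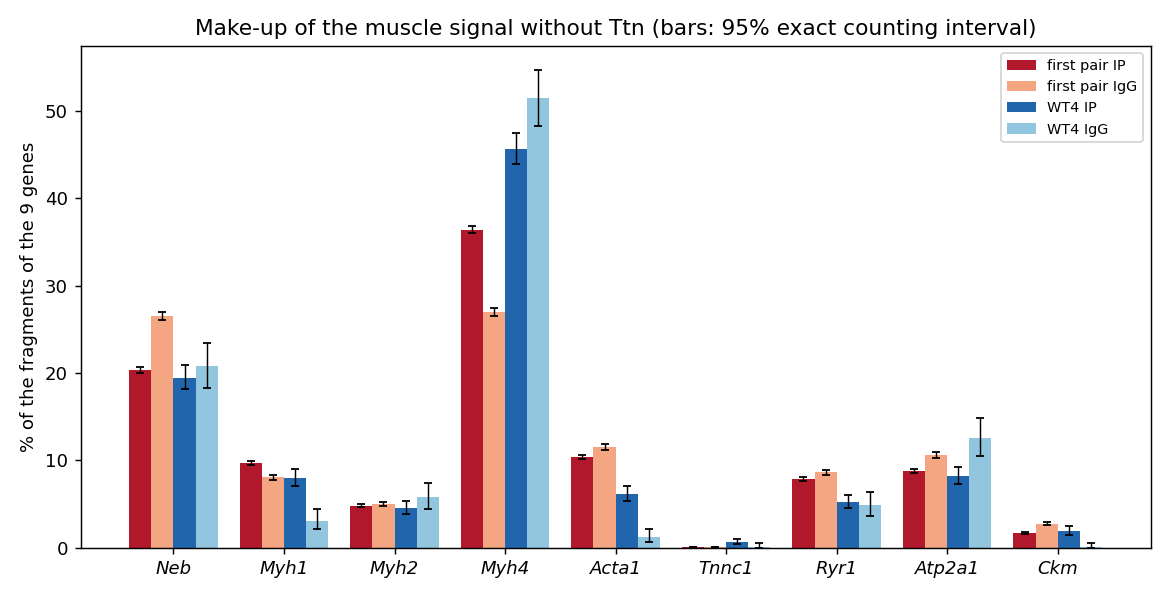
Share (%) of the summed fragments of the 9 genes other than Ttn in each library, with 95% exact binomial intervals that cover counting error only. Myh4 has the most fragments of the 9 in every library, from 27.0% to 51.5%, and Acta1 and Ckm are lowest in the WT4 IgG library, at 1.23% and 0.103%.

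Between the pairs, the shares of library fragments did not differ by one common factor. Among IP libraries the first pair stood 7.05-fold above WT4 for Acta1, 6.23-fold for Ryr1, 5.88-fold for Ttn and 3.34-fold for Myh4. Tnnc1 was the exception there, at 0.652-fold. Among IgG libraries the spread was wider, from 0.838-fold for Tnnc1 and 1.22-fold for Myh4 to 21.8-fold for Acta1 and 62.2-fold for Ckm, the last on 1 WT4 fragment. These are single libraries, and no test was made.

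Set per length, in FPKM, the levels of the genes took another order than their fragments, and Acta1 stood above Myh4 in both libraries of the first pair. The FPKM order in the first pair's IP library was Ttn (972), Acta1 (497), Myh4 (375), Atp2a1 (180), Neb (178), Myh1 (101), Ckm (79.6), Myh2 (49.5), Ryr1 (31.0) and Tnnc1 (10.5). In its IgG library Ttn (869) and Acta1 (411) again led, followed by Atp2a1 (242) and Myh4 (208). In WT4 the IP library was led by Ttn (113), Myh4 (86.5) and Atp2a1 (60.2), and the IgG library by Atp2a1 (199), Myh4 (109) and Neb (80.6), with Ttn next at 77.7. FPKM divides by a transcript length that the authors' software set per gene and library. Dividing scaled count by FPKM, and calibrating on between 521 and 922 genes with a single annotated transcript per library, gave an estimate of the length that was used. For Myh4 it was 6.25 kb in IP and 6.22 kb in IgG in the first pair, and 6.21 kb in IP and 6.23 kb in IgG in WT4, near its longest annotated transcript of 6.02 kb. For Ttn it was 21.4 kb in IP and 20.8 kb in IgG in the first pair, and 24.0 kb in IP and 22.5 kb in IgG in WT4, against a longest annotated transcript of 106.8 kb among 25. For Neb it was 7.36 kb in IP and 6.97 kb in IgG in the first pair, but 10.1 kb in IP and 3.41 kb in IgG in WT4. Atp2a1 moved likewise, at 3.15 kb in IP and 2.10 kb in IgG in the first pair, and 1.61 kb in IP and 0.832 kb in IgG in WT4. In FPKM, accordingly, the WT4 log2 ratios of Neb and Atp2a1 were -1.79 and -1.71, against -0.24 and -0.75 in scaled CPM. Set to the longest annotated transcript in place of the authors' length, the CPM of the library's own total per kb in the first pair's IP library were 600 for Acta1, 505 for Myh4 and 252 for Ttn, and Myh4 led in both WT4 libraries, at 151 in IP and 231 in IgG. The place of Ttn at the head of the FPKM order thus turned on the length used, while Tnnc1, Ryr1, Ckm and Myh2 stood among the last 5 in both libraries of the first pair either way.

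**Figure D5:**
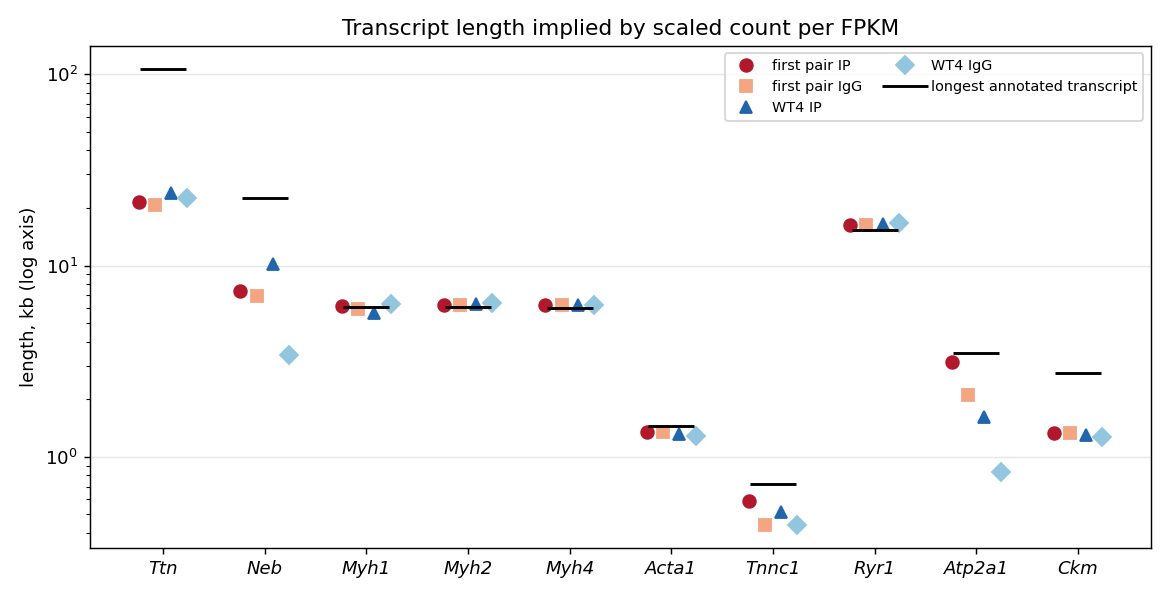
Transcript length (kb, log axis) implied by scaled count per FPKM for each gene in the 4 libraries, with the longest annotated transcript as a black line. The 3 myosins, Ryr1 and Acta1 lie near the line, Ttn lies near 21 to 24 kb against 106.8 kb, and Neb and Atp2a1 differ between libraries.

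Fast and slow isoforms were compared within a library, in FPKM. Myh4 stood 3.94-fold in IP and 2.495-fold in IgG above Myh7, the slow and cardiac chain, in the first pair, and 5.55-fold in IP and 13.4-fold in IgG above it in WT4. Myh7 itself, whose listed locus holds 3 genes, had 5214 IP against 3896 IgG fragments (first pair), and 270 IP against 39 IgG fragments (WT4), so slow chain RNA was present beside the fast chains. Tnnc2, the fast troponin C gene, whose listed locus holds 2 genes, exceeded Tnnc1 36.8-fold in IP and 53.2-fold in IgG in the first pair and 4.03-fold in WT4 IP, but in the WT4 IgG library Tnnc2 was listed at 0 and Tnnc1 had 1 fragment. Ryr1 exceeded the cardiac channel gene Ryr2 79.3-fold in IP and 62.3-fold in IgG in the first pair and 2.76-fold in WT4 IP, and Ryr2 was listed at 0 in WT4 IgG. Of the 9 heart genes Tnnt2, Myl7 and Nppa were listed at 0 in all 4 libraries, Myl7 at a listed locus of 12 genes. Others were detected, of which Myh6 and Tnni3 are named after their values were seen. Myl4, among the most abundant of the list, was 2-fold lower in IP in both pairs (log2 ratios of -4.04 and -2.30). It was 1 of 4 tested heart genes to be so, against 5.25% of all genes. In the first pair Myh6 had 141 IP against 1 IgG fragments, Tnni3 56 against 40 and Myl4 0 against 87. In WT4 they had 0 IP against 9 IgG, 0 against 19 and 26 against 36. Atp2a1 stood above Atp2a2, the pump gene of slow and many nonmuscle cells, 1.95-fold in IP and 2.27-fold in IgG in the first pair, and 1.004-fold in IP and 5.21-fold in IgG in WT4. The listed loci of Atp2a1 and Atp2a2 hold 2 genes each. These pump ratios also rest on the Atp2a1 length, which differed between libraries. Per kb of longest annotated transcript they were 2.17 (IP) and 1.74 (IgG) in the first pair, and 0.673 (IP) and 1.52 (IgG) in WT4, so in WT4 IP the order turned.

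The rest of the muscle programme was followed with 5 other lists of 71 genes, of which 68 were tested. They took 0.800% of fragments in IP and 0.678% in IgG in the first pair, and 0.293% in IP and 0.265% in IgG in WT4, so they too held a larger share in the first pair. None passed edgeR's test over all genes (smallest adjusted p = 1.0), and 1 of 68 had an unadjusted p under 0.05. That was Tnnc2, named after its value was seen, with 1877 IP against 885 IgG fragments (first pair) and 82 IP against 0 IgG fragments (WT4; edgeR, unadjusted p = 0.00773). At least 2-fold higher in both pairs were 6, against 7.19% of all genes, and 2-fold lower in both were 2, against 5.25%, while 9 were 2-fold in opposite directions. All 6 of the higher genes had 0 fragments in the WT4 IgG library, and against a floor of 3 fragments there only Jph1 reached 2-fold. The median of their log2 ratios was 0.12 (first pair) and 1.07 (WT4), or 0.14 and 0.33 with genes at 0 set to the floor, on 67 and 63 genes. In the WT4 IgG library 31 of the 68 had no fragment, whereas 2 had none in WT4 IP, and 3 (IP) and 2 (IgG) had none for the first pair.

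By role, 1 of 15 thick filament and M-band genes (Myl2) was past 2-fold upward in each pair, against 7.19% of all genes. None was past it downward, against 5.25%. The list had medians of 0.09 (first pair) and 0.91 (WT4), the last turning to -0.15 at the floor. Beside this and the list medians below, those over all genes were -0.03 and 1.17, or -0.29 and 0.11 at the floor. Myl2, a slow regulatory light chain whose listed locus holds 2 genes, had 187 IP against 22 IgG fragments (first pair, 7.23-fold, 4.64 to 11.8) and 6 IP against 0 IgG fragments (WT4), too few there to bound a difference. Of 12 thin filament genes 1 was 2-fold higher in both pairs, against 7.19% of all genes, and 1 was 2-fold lower, against 5.25%. The higher gene was Tnni1, slow troponin I (156 IP against 55 IgG fragments, and in WT4 4 IP against 0 IgG, also too few for a bound). The lower gene was Tmod1, a filament end cap. Tmod1, whose listed locus holds 4 genes, had 52 IP against 183 IgG fragments (first pair) and 2 IP against 13 IgG fragments (WT4, 0.0415-fold, 0.00454 to 0.183). The thin filament list had medians of 0.26 (first pair) and 2.01 (WT4), or 0.26 and 0.30 at the floor. Of the 3 tropomyosin genes listed, Tpm2 stood at log2 ratios of 0.30 (first pair) and 0.63 (WT4) and Tpm1 at 0.22 and 0.49. Tpm3, named after its value was seen, stood at -0.19 and 2.34, with 1023 IP against 996 IgG fragments (first pair) and 306 IP against 16 IgG fragments (WT4). Of 14 Z-disc genes 1 was 2-fold lower in both pairs, against 5.25% of all genes, and 0 were higher, against 7.19%. The lower gene was Myoz1 (38 IP against 103 IgG fragments, and in WT4 12 IP against 20 IgG). The Z-disc medians were 0.06 and 0.70, or 0.06 and 0.33 at the floor, the last on 13 genes. Xirp2, an actin-binding protein of the Z-disc region, had 4709 IP against 2104 IgG fragments (first pair), and 356 IP against 106 IgG fragments (WT4). Des, the muscle intermediate filament gene, had 1980 IP against 1581 IgG fragments (first pair) and 234 IP against 34 IgG fragments (WT4).

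Of 17 tested genes of calcium release and excitation, 4 had a ratio past 2-fold upward in each pair, against 7.19% of all genes, and 0 downward, against 5.25%. At the floor only Jph1 of the 4 stayed past 2-fold in WT4. The list had medians of 0.23 (first pair) and 2.52 (WT4), or 0.28 and 0.47 at the floor, each on 16 genes. The 4 were Stac3, Pln, Jph1 and Trdn. Jph1, a junctophilin, had 396 IP against 162 IgG fragments (first pair) and 56 IP against 0 IgG fragments (WT4, at least 5.03-fold higher). Trdn, triadin, had 333 IP against 76 IgG fragments (first pair) and 18 IP against 0 IgG fragments (WT4, at least 1.62-fold higher). Stac3 had 71 IP against 0 IgG fragments (first pair, at least 20.1-fold higher) and 20 IP against 0 IgG fragments (WT4, at least 1.80-fold higher). Pln, the calcium pump inhibitor phospholamban, whose listed locus holds 2 genes, had 74 IP against 2 IgG fragments (first pair, 31.5-fold, 8.41 to 265) and 22 IP against 0 IgG fragments (WT4, at least 1.98-fold higher). None of these passed the test across both pairs (edgeR, unadjusted p between 0.214 and 0.429). The most abundant members were Atp2a2, at log2 ratios of -0.15 and 0.42, and Srl, sarcalumenin, at 0.32 and 1.36. In muscle energy metabolism 0 of 10 genes passed 2-fold in one direction in each pair, against 7.19% (higher) and 5.25% (lower) of all genes. The medians were -0.01 (first pair) and 0.62 (WT4), or 0.45 in WT4 at the floor, on 7 genes. Its most abundant genes were Pygm, muscle glycogen phosphorylase (0.40 and 0.49), and Mb, myoglobin (-0.10 and 0.45).

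The regulators that drive muscle formation held a like share of every library. The list took 0.0565% in IP and 0.0598% in IgG in the first pair, and 0.0665% in IP and 0.0635% in IgG in WT4, within a range much narrower than that of the 10 genes. It was carried by Mef2d (1936 IP against 1541 IgG fragments, and in WT4 462 IP against 155 IgG) and Mef2a (620 IP against 587 IgG, and in WT4 272 IP against 16 IgG), which are not confined to muscle. Myod1 and Myog, the determination and differentiation factors, were listed at 0 in both libraries of the first pair, and in WT4 Myod1 had 4 IP against 23 IgG fragments and Myog 9 IP against 0 IgG fragments. Of the 12 tested, 1 (Pax3) was 2-fold lower in both pairs, against 5.25% of all genes, and 0 were higher, against 7.19% (0 IP against 10 IgG fragments, and in WT4 19 IP against 20 IgG). The list's medians were -0.01 (first pair) and 1.94 (WT4). At the floor they were -0.15 on 9 genes and 0.39 on 11 genes. In edgeR's test over all genes 0 of its genes passed, and the smallest unadjusted p was 0.254.

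Markers of other cell types were set beside the larger muscle share of the first pair. Brown adipocyte genes, 15 of 15 detected in each library, took 1.52% in IP and 1.48% in IgG in the first pair, and 0.944% in IP and 0.529% in IgG in WT4. Ucp1, the uncoupling protein that makes heat, had 38953 IP against 32123 IgG fragments (first pair) and 3708 IP against 527 IgG fragments (WT4). It and Fabp4 were the most abundant of the list and weigh most in its sum. Ucp1 took 0.587% (IP) and 0.575% (IgG) in the first pair, and 0.227% (IP) and 0.146% (IgG) in WT4. Prdm16 went the other way, at 0.00719% (IP) and 0.0193% (IgG) in the first pair, and 0.0188% (IP) and 0.0272% (IgG) in WT4. Ppargc1a did so among IP libraries alone, at 0.0956% (first pair) and 0.190% (WT4). Per Ucp1 fragment there were 6.01 (IP) and 5.21 (IgG) fragments of the 10 muscle genes in the first pair, and 2.89 (IP) and 4.28 (IgG) in WT4. That ratio was carried by Ttn. Without it there were 1.42 (IP) and 1.09 (IgG) fragments per Ucp1 fragment in the first pair, and 0.876 (IP) and 1.84 (IgG) in WT4, so the first pair stood higher among IP libraries and lower among IgG libraries. Smooth muscle genes took 0.0212% (IP) and 0.0271% (IgG) in the first pair, and 0.0462% (IP) and 0.0377% (IgG) in WT4, with Cnn1 at 0 in all 4. Endothelial genes took 0.0896% (IP) and 0.229% (IgG) in the first pair, and 0.250% (IP) and 0.212% (IgG) in WT4. Heart genes took 0.00387% (IP) and 0.00338% (IgG) in the first pair, and 0.00607% (IP) and 0.0178% (IgG) in WT4, with 3 of 9 at 0 in all 4. Genes of the neuromuscular junction and nerve took 0.00285% (IP) and 0.00358% (IgG) in the first pair, and 0.00613% (IP) and 0.0211% (IgG) in WT4, with Chrne at 0 in all 4. Blood genes took 0.0153% (IP) and 0.0297% (IgG) in the first pair, and 0.00650% (IP) and 0.00139% (IgG) in WT4. Macrophage genes took 0.00612% (IP) and 0.00405% (IgG) in the first pair, and 0.00552% (IP) and 0.00971% (IgG) in WT4. By summed share, brown adipocyte and blood genes were thus also higher in the first pair, and heart, nerve and smooth muscle genes lower. Within the brown adipocyte list the genes did not all follow the sum. The part of tissue make-up in the difference between pairs was not tested, and pair, depth and the cold label cannot be told apart.

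Beyond the lists, the genes whose share followed the median profile of the 10 genes most closely over the 4 libraries were mt-Cytb, Hspb6, Npc2, Trp53inp2 and Pgam1, out of 7598 candidates with a mean of at least 20 scaled CPM. Their distances, on centred log2 CPM of the library's own total, were 0.175, 0.189, 0.213, 0.219 and 0.237. The listed loci of mt-Cytb and Hspb6 hold 3 genes each, so their counts are uncertain. The members themselves lay between 0.336 (Neb) and 3.05 (Ckm) from that profile, and 11 of the candidates lay closer than Neb, the nearest member. With 4 libraries such a profile describes little more than the contrast between the pairs.

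Promoters were examined as a description of their sequence. All of the 10 genes but Tnnc1 held a larger share in both libraries of the first pair than in WT4, and a link of motifs to that was not tested. RefSeq promoters of GRCm38.p6 (250 bases before the start site to 50 after) were matched for 9 of the 10 genes. Neb had no entry, and Tnnc1 is among the 9. Motifs known from muscle gene control were searched on both strands. The CArG box, the site of serum response factor, occurred in 2 of the 9 promoters (Acta1 and Myh4) and in 1.63% of 32851 promoters. The MEF2 site occurred in 1 of 9 (Ttn) and in 0.557%. The MCAT element CATTCC occurred in 5 of 9 and in 14.7%, the E-box CAGCTG in 4 of 9 and in 16.3%, and the TATA box TATAAA in 4 of 9 and in 13.6%. A match is a description of letters and not a site in use. The promoters of Acta1 and Myh4 are shown because they hold a CArG box. Capitals mark matches to any of these motifs on either strand:
Acta1, chr8:123894726-123895025, minus strand: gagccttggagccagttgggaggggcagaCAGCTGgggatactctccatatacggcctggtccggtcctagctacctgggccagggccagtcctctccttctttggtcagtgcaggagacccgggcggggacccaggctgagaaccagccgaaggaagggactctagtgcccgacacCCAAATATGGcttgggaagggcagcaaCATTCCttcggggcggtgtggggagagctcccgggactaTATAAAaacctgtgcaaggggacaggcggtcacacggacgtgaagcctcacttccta
Myh4, chr11:67237562-67237861, plus strand: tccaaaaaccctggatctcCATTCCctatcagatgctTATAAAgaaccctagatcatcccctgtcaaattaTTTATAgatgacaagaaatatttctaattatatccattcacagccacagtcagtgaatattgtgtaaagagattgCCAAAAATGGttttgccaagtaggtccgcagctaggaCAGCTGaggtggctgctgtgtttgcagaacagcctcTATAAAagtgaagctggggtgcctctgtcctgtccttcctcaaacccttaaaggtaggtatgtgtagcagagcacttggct
In Acta1 the CArG box starts 73 bases before the annotated start site and the CAGCTG 221 bases before it. In Myh4 these lie 104 and 67 bases before it.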

How the data were processed

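RNA immunoprecipitation libraries from brown adipose tissue, rRNA-depleted and directional per the labels' protocols, were used as 2 pairs of IP and IgG. The build mm10 and the tools HISAT2, Cufflinks, Cuffdiff and cutadapt 1.9.3 are named, without roles, per the submitters' processing notes. No source used here names the annotation release. The authors deposited estimated counts, scaled by 1 factor per library, and FPKM, in 1 table per pair.

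Between 94.5% and 97.7% of the deposited estimated counts above 0 were a whole number (within 0.05) of a library's step, so division by that step and rounding gave fragments. Rows of 1 symbol were summed. Scaled CPM is the scaled count per 1000000 of the pair's mean total. Log2 ratios were taken within a pair after adding 1. Genes with a mean of at least 1 scaled CPM were tested (16217) with edgeR 4.0.16 (quasi-likelihood, pair as a block from the titles and tables, library sizes from the authors' scaling, adjusted p under 0.05). With 1 residual degree of freedom, edgeR took each gene's spread wholly from values pooled across genes and not from the gene's own libraries. That spread, with separate animals not stated, may be technical. The procedure was tested on simulated data, whose spread was set smaller than the one fitted to these libraries. That simulation therefore gives no measure of the power of the test here. The smallest two-sided p of an exact permutation test of 2 IP against 2 IgG libraries is 0.333. Alternatives used DESeq2 1.42.0 and limma 3.58.1, TMM factors, other filters and pseudocounts, FPKM, no block and leaving out each library. Intervals are exact binomial (95%, scipy 1.17.1). Coordinates and transcripts are from GENCODE vM21 (GRCm38, the assembly mm10 names), aligned with Biopython 1.88.

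The 10 genes and the 13 other lists, with 143 genes of which 141 matched a row, were chosen with earlier results of these data known. Named list genes were the 2 most abundant of each list and up to 4 past 2-fold in 1 direction in each pair, by the largest mean ratio. Those of the lists of other cell types are given by summed level only, except where a gene is named. The values of 1 list gene that this rule names are not reported here. Other list genes named were chosen after their values were seen. Of the genes at 0, a fold used a floor of 3 fragments per library. A gene with a library at 0 and neither library of the pair above the floor had no value. Medians at the floor therefore cover fewer genes in some lists.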

Additional observations from a re-analysis of the deposited data

Results flagged for a closer look

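For 6 of the 10 genes the IP over IgG ratio lay on opposite sides of 1 in the 2 pairs, each pair being 1 IP and 1 IgG library. The difference between pairs was not tested, since each pair holds 1 library of each kind. On the log2 scale of scaled CPM plus 1, Ckm stood at -0.32 in the first pair and 3.61 in WT4, the widest gap, on 1 IgG fragment in WT4. Myh4 stood at 0.86 and -0.32, and Atp2a1 at 0.16 and -0.75. Myh2 stood at 0.37 and -0.48, Neb at 0.042 and -0.24, and Ryr1 at 0.29 and -0.028. With TMM factors Neb and Ryr1 no longer lay on opposite sides in the 2 pairs, and in FPKM Neb and Atp2a1 lay below 1 in both.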

How the results depend on the processing

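None of the 10 genes was called under any of the 10 alternatives across both pairs. The number of genes called over the whole table was 1 and became 3 with DESeq2, 2 with a filter of 5 scaled CPM, 13 with limma and 0 with no replicate block. Leaving out 1 library, with no replicate block, gave 0 calls without either library of the first pair, 5 without the WT4 IP library and 7 without the WT4 IgG library. The pairing comes from the titles and tables, and the block changed no call among the 10 genes.

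Fitted log2 fold changes that turned sign were those of Myh2 with DESeq2 (0.011), with TMM factors (0.13) and with no replicate block (0.15), and of Neb with TMM factors (0.073); the cause was not tested. Leaving out 1 library compares libraries across pairs, and the values ran from -1.41 to 2.32 for Ttn, -1.34 to 1.08 for Neb, -0.73 to 2.72 for Myh1, -1.17 to 0.85 for Myh2 and -0.55 to 1.05 for Myh4. They ran from -1.48 to 4.07 for Acta1, -1.08 to 5.15 for Ckm, -1.42 to 0.61 for Atp2a1 and -1.52 to 1.72 for Ryr1. Tnnc1 alone kept its direction, at 1.73 to 2.47.

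The median log2 ratio of the 10 genes (0.28 and 0.31) was 0.35 and 0.59 with TMM factors, 0.31 and -0.86 when centred, and 0.025 in WT4 with library totals and 0.25 there in FPKM. It was 0.33 and -0.14 without the 4 genes that share a listed locus, and 0.20 and 0.65 without Myh1, Myh2 and Myh4. The number 2-fold higher in both pairs was 0, not 1, when centred, with a pseudocount of 5 and without genes that share a locus. The all-gene WT4 median of 1.17 was 0.90 with library totals and 1.35 with TMM factors.

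As a share of summed FPKM the 10 genes took 0.649% in IP and 0.588% in IgG in the first pair, and 0.128% in IP and 0.180% in IgG in WT4. Without mitochondrially encoded genes in the total they took 3.89% in IP and 3.22% in IgG in the first pair, and 0.762% in IP and 0.693% in IgG in WT4. Depth limits the WT4 IgG library most, where Ckm and Tnnc1 rest on 1 fragment each.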
